A study of Gallus gallus with 6 samples.

Results

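The surface ectoderm and keratin genes are 10 genes that mark the epithelium covering the neural tube and its derivatives: the keratins KRT7, KRT18 and KRT19, the adhesion and junction genes EPCAM and CLDN1, and the transcription factors GATA2, GATA3, TP63, DLX3 and TFAP2C. They were found by their symbol in the annotation of the array. A probe set, a group of short oligonucleotides on the array that reads 1 transcript, was listed for 8 of the 10, with 11 probe sets in all among 38382 chicken probe sets and 13009 named genes. For KRT18 and KRT19 no probe set carried the symbol, so neither is analysed here under its own name. Where a gene had several sets, the one with the highest mean over the 6 arrays was its main set.

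The samples were cultures of chicken neural crest, a migratory cell population that emigrates from the top of the neural tube, grown out of explants taken at stage 9+. After 4 h in culture, 3 samples stayed in media alone (control) and 3 received homocysteine, a sulfur-containing amino acid made from methionine, at 100 uM for a further 6 h. Total RNA of each sample was read on 1 Affymetrix chicken array. No strain, genotype or transgene is given for the embryos, and the labels do not say whether arrays of 1 group came from separate cultures, how many explants went into each, or what the replicate numbers 1 to 3 mark. All p-values below rest on the spread among these 6 samples, part or all of which may be technical.

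The surface ectoderm is the outer epithelial sheet of the embryo. It adjoins the neural folds from which the neural crest arises, and a dissected neural tube can carry some of it. Keratins of simple epithelia form the intermediate filaments of such sheets, the claudins seal their tight junctions, and EPCAM is an epithelial adhesion molecule of the cell surface. TP63 is a master regulator of stratified epithelium. GATA2, GATA3, DLX3 and TFAP2C belong to the transcription factors that set non-neural ectoderm apart from the neural plate.

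The arrays differed in quality along the replicate numbers. The 5' over 3' signal ratio for ACTB, a measure of RNA integrity and labelling, was lowest on the replicate 1 arrays, at 0.0572 in control and 0.059 with homocysteine, while the other 4 arrays ranged from 0.238 to 0.421. Intensity is the linear signal as deposited. For each array, the 95th percentile of 57 reporter sets, which match no chicken transcript, served as its background and lay between 53.2 and 84.9. Homocysteine 1 and 2 had the highest backgrounds (77.2 and 84.9). Neural crest markers were present: 14 of 15 measured markers were above background on at least 3 arrays, beside 9485 of 13009 named genes. On all 6 arrays 12 of the 15 were, beside 7925 of the 13009. Among them was SOX10, a regulator of migrating crest, at 3160.6 to 4964.9 in control and 3520.9 to 5076 with homocysteine.

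Of the members, KRT7, EPCAM and CLDN1 were read clearly in these cultures, and the transcription factors were mostly not. The main sets of 4 of the 8 members (KRT7, EPCAM, CLDN1 and TP63) were above background on all 6 arrays, GATA3 was on 3, and GATA2, DLX3 and TFAP2C were on none. Over all named genes, 7925 of 13009 were above background on all 6 arrays.

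KRT7, a type II keratin of simple epithelia, had intensities of 3354.9, 590.5 and 2902.9 on control 1, 2 and 3. With homocysteine it had 2719.8, 795.5 and 2548.4. The replicate 2 array was the lowest of its group in both groups, and the 4 other arrays lay close together, so the groups overlapped. The highest array was 5.68-fold above the lowest. The set is of a kind that can read more than 1 related transcript, as its name marks (_s_at).

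CLDN1, a claudin of the tight junction, gave 6795.4, 2696.4 and 7299.2 in control and 4480.9, 3211.8 and 5420.8 with homocysteine. It too was lowest on replicate 2 in both groups, and its only set is of the same kind. EPCAM gave 6850.5, 3428.9 and 7740.8 in control and 4800.3, 4086.3 and 5681.4 with homocysteine, again with the replicate 2 arrays lowest and with overlapping groups. A dimmer EPCAM set gave 695.9, 147.3 and 540.1 in control and 430.5, 213.7 and 457.2 with homocysteine and repeated that order. The third EPCAM set, whose name marks possible cross-hybridisation (_x_at), gave 955.4, 676.7 and 2018.6 in control and 665.8, 912.8 and 944.8 with homocysteine. In that set the replicate 2 arrays were not both lowest.

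GATA3, a zinc finger factor of non-neural ectoderm and of several later lineages, lay near background. Its intensities were 129.9, 31.8 and 173.8 in control and 58.9, 56.4 and 157.9 with homocysteine. It was above background on control 1, control 3 and homocysteine 3. TP63 was the member with the least spread, at 242.1, 209.1 and 195.5 in control and 348.2, 314.7 and 224.4 with homocysteine, and its replicate 2 arrays did not stand apart. A second TP63 set was above background on no array, with 1.9 to 38.3 in control and 21.6 to 33.7 with homocysteine.

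The 3 remaining factors were not above background on any array. GATA2, a zinc finger factor shared with blood, was read between 4.9 and 54.4. TFAP2C, of the AP-2 family that acts at the neural plate border, was read between 10.8 and 60.8, and DLX3, a homeobox factor of ectoderm, between 2.4 and 9.7. The log2 changes of these 3 are not read as changes, and a transcript that its set reads poorly cannot be told apart from one that was not made.

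**Figure D1:**
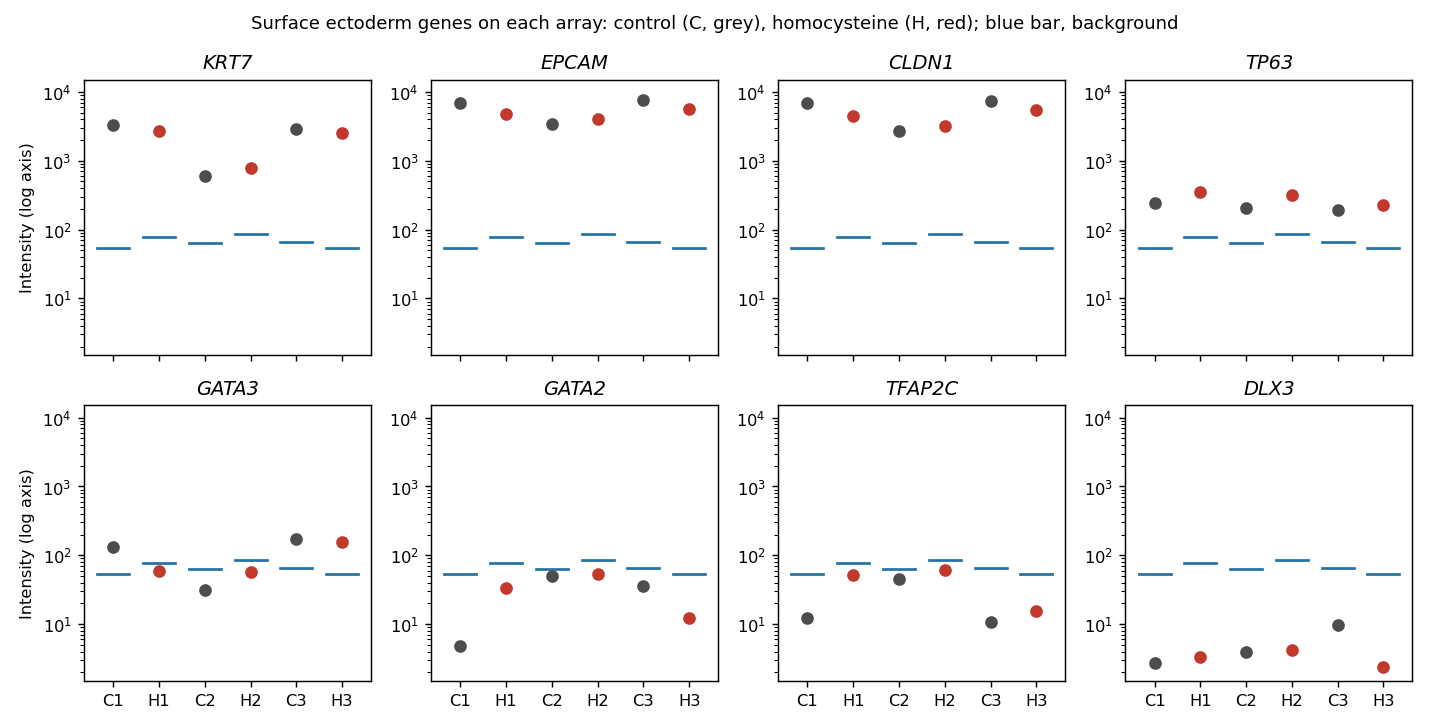
Intensity (log axis) of the main probe set of each of the 8 measured members on control (C, grey) and homocysteine (H, red) arrays, set side by side by replicate number; the blue bar is the array's background. KRT7, EPCAM and CLDN1 are lowest on C2 and H2, TP63 is not, and GATA2, TFAP2C and DLX3 lie below background throughout.

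From replicate number to replicate number, KRT7, CLDN1 and EPCAM shared a low level on replicate 2 but differed in how far they varied. Both replicate 2 arrays lay below the other 4 arrays for these and for GATA3, or 4 of the 8 members, beside 12.5% of all 13009 genes. The order in GATA3 rests on readings below background and is not read as a difference. Of the 4 members above background on all 6 arrays, all but TP63 had this order, beside 16.8% of the 7925 such genes. In KRT7 the replicate 2 arrays reached at most 795.5, and the other 4 started at 2548.4. The distance was narrower in CLDN1, from 3211.8 to 4480.9, and in EPCAM, from 4086.3 to 4800.3, and it was slight in GATA3, from 56.4 to 58.9, where both replicate 2 arrays and homocysteine 1 were below background. The count stayed at 4 with quantile normalization, with arrays centred on their medians, and with both replicate 1 arrays left out.

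Relative to the replicate 2 arrays, the mean log2 level on replicates 1 and 3 was 4.18-fold higher for KRT7, 2-fold for CLDN1 and 1.65-fold for EPCAM. The log2 difference, replicate 2 minus the mean of 1 and 3, was -2.06 for KRT7 (95% interval -2.88 to -1.25), -1.0 for CLDN1 (-1.88 to -0.13) and -0.72 for EPCAM (-1.57 to 0.13). These intervals come from a fit with replicate number and treatment as terms, they are not adjusted, and this contrast was chosen after the values were seen. For TP63 the difference was 0.06 (-0.62 to 0.73). The groups of arrays fall apart by number, so no correlation across the 6 arrays is given.

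The test between the 3 replicate numbers depended on how the spread was modelled. In the main fit each probe set's own spread was drawn towards 1 value common to all probe sets. By it 0 of 38382 (0%) reached an adjusted p under 0.05, with 4451 at an unadjusted p under 0.05 (limma F test, Benjamini-Hochberg). KRT7 had an unadjusted p of 0.00751 and an adjusted p of 0.379 by that test. With a common value that follows intensity (trended and robust limma), 3518 probe sets passed, or 9.17%, and 3 of the 8 members did. There the adjusted p was 0.000114 for KRT7, 0.00565 for CLDN1 and 0.0247 for EPCAM, and 0.0854 for GATA3 and 0.537 for TP63, which did not pass. With only the probe sets above background on all 6 arrays in the test, KRT7 (adjusted p = 0.0102) and CLDN1 (0.046) passed and EPCAM did not (0.0901), where 18.9% of 14437 probe sets passed.

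**Figure D2:**
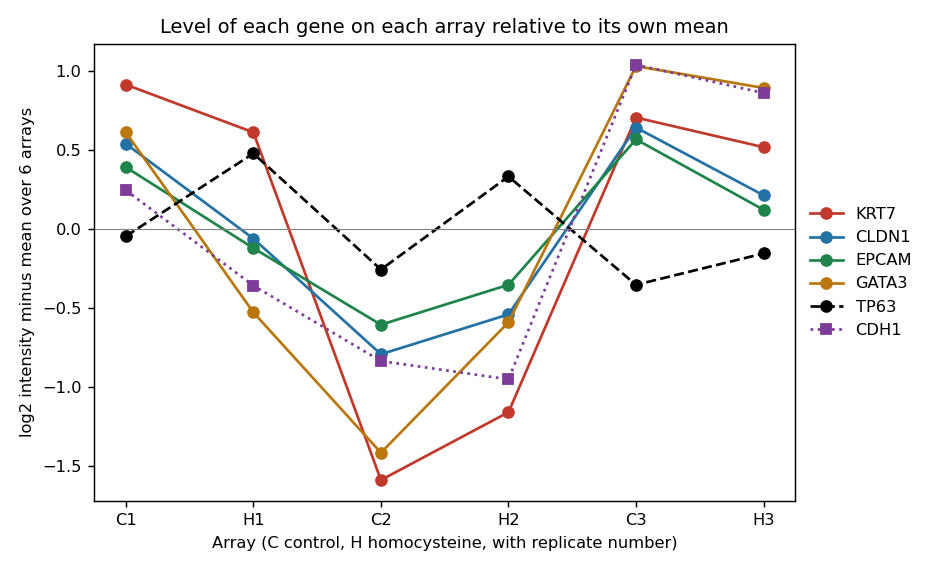
log2 intensity minus each gene's own mean over the 6 arrays, for the 5 members above background on at least 3 arrays and for CDH1, which encodes E-cadherin, in the order C1, H1, C2, H2, C3, H3. All but TP63 dip on C2 and H2, where GATA3 is below background, as it is on H1. KRT7 has the deepest dip, to a log2 difference of -2.06 from the mean of replicates 1 and 3.

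Markers of neural crest and neural tube divided the arrays in another way. The summed intensity of the 8 members was 17392, 7056 and 18368 on control 1, 2 and 3 and 12496, 8584 and 14063 with homocysteine. For the 15 neural crest markers it was 12958, 23933 and 27173 in control and 12929, 25613 and 24543 with homocysteine, lowest on the replicate 1 arrays. On replicates 2 and 3 the crest sums overlapped while the members' sums did not. The members' sum is made up mostly of EPCAM, CLDN1 and KRT7, the genes already seen to be low on replicate 2, and TP63 adds little to it. For the 11 measured neural tube markers it was 38638, 50177 and 42272 in control and 43492, 46731 and 43788 with homocysteine. Those sums were highest on the replicate 2 arrays. In bulk RNA, fewer cells of a type and less RNA per cell cannot be told apart. The ACTB ratio differed by replicate number, at 0.0572 and 0.059 on replicate 1, 0.41 and 0.421 on 2, and 0.287 and 0.238 on 3. The part of RNA integrity in the members' pattern was not tested and cannot be told apart from that of replicate number.

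Mesoderm, endoderm and blood cells also express some members. The summed intensity of 13 mesoderm and somite markers was 1368, 957 and 1591 on control 1, 2 and 3. With homocysteine it was 2279, 1206 and 1755. Both replicate 2 arrays thus had the lowest sums, as they did for the members. Of the 13 markers, 4 were above background on all 6 arrays. TBXT, a mesoderm factor, gave 591.5, 390.8 and 266.1 in control and 1363, 350.9 and 980.6 with homocysteine. The sum of 13 endoderm markers was 1923, 2619 and 2463 in control and 2313, 2763 and 2255 with homocysteine, highest on the replicate 2 arrays. HHEX, a homeobox factor of endoderm, went against that sum. It was lowest on the replicate 2 arrays, at 336.4 and 521 against at least 553.4 on the others. The sum of 12 blood and endothelial markers was 1653 to 2235 in control and 1580 to 1945 with homocysteine. Of the endoderm markers 7 of 13 were above background on all 6 arrays, and of the blood and endothelial markers 4 of 12 (TAL1, LMO2, KDR and CDH5). The haemoglobin genes HBE and HBA1 were above it on 5 and 0 arrays. Above background on no array were 5 mesoderm and somite markers, 3 endoderm markers and 1 blood and endothelial marker. Both replicate 2 arrays lay below the others for 1 mesoderm marker (MEOX1), 2 endoderm markers (HHEX and AFP, the second below background throughout), and 0 markers of neural crest, neural tube or blood and endothelium. The part of these cell types in the members' levels was not tested.

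**Figure D3:**
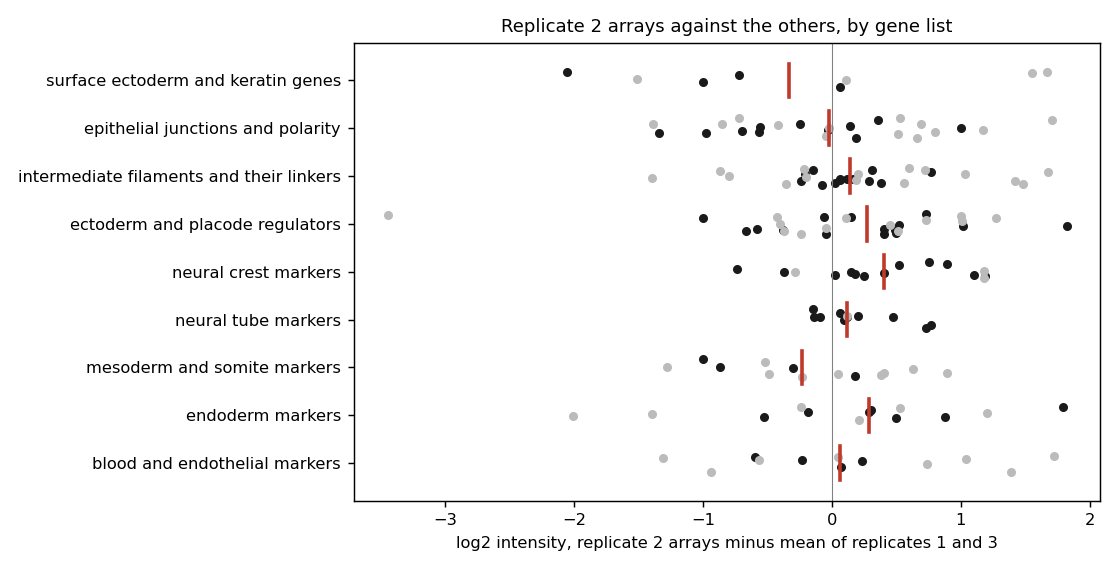
log2 intensity of the replicate 2 arrays minus the mean of replicates 1 and 3, 1 point per gene (black, above background on all 6 arrays; grey, not), with the median of each list in red. The members' median, with the 3 below background on every array included, is -0.33. That of the mesoderm and somite markers is -0.23 and that of the neural crest markers 0.40. The other medians lie between -0.03 and 0.29. KRT7 is the lowest black point of all lists, at -2.06.

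Genes of the wider epithelial and ectodermal programme were read from 3 further lists: 35 genes of epithelial junctions and polarity, 36 of intermediate filaments and their linkers, and 36 regulators of ectoderm and placodes, the thickenings of ectoderm that form sense organs. Of these, 24, 28 and 28 were measured, and 11, 13 and 15 were above background on all 6 arrays. Both replicate 2 arrays were lowest for 3 of 24, 0 of 28 and 4 of 28, or 8.75% of the 80 measured genes, under the 12.5% of all genes. The 7 genes were CDH1, PATJ, CDS1, DLX5, DLX6, EYA2 and PAX2, picked here after their values were seen.

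CDH1, which encodes E-cadherin, the adherens junction protein of epithelia, gave 1409.8, 665.9 and 2447.6 in control and 927.8, 614.5 and 2162.5 with homocysteine. Its level on replicates 1 and 3 was 2.54-fold that on replicate 2. It passed the trended test between numbers (adjusted p = 0.000378, limma) but not the main fit (adjusted p = 0.379). As CDH1 is listed here for being lowest on replicate 2, the test adds no separate support. DLX5, a homeobox factor of the neural plate border and placodes, gave 5978.9, 3018.3 and 4023.4 in control and 5686.6, 3362.8 and 3747 with homocysteine. EYA2, a cofactor of placode development, gave 456.6, 224.7 and 875 in control and 481.1, 290.5 and 353.2 with homocysteine. The spread of EYA2 in control was wide, and it did not pass the trended test (adjusted p = 0.127).

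Among the ectoderm regulators others went the opposite way. ID1, an inhibitor of helix-loop-helix factors induced by BMP, gave 939.5, 6877.4 and 4526.4 in control and 1079.4, 7820.8 and 4070.2 with homocysteine, highest on replicate 2. HES5, a Notch target that neural tube also expresses, gave 2731.3, 4622.8 and 2874.2 in control and 2733.2, 5347.9 and 3733.9 with homocysteine. Both passed the trended test between numbers (adjusted p = 1.9e-05 and 0.00647, limma) but not the main fit (0.379 and 0.457). By the trended test 9.17% of all probe sets passed. So did 2 of 24 junction genes, 1 of 28 filament genes and 9 of 28 ectoderm regulators. Of these genes only CDH1 and DLX5 were lower on replicate 2 than the mean of replicates 1 and 3, as KRT7 was. The others lay above that mean. Among the neural crest markers 10 of 15 passed, and TFAP2B and MSX1 are counted in both that list and the ectoderm list.

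The replicate 2 arrays were not both lowest for any other keratin on these lists. KRT24, a type I keratin for which RefSeq lists KRT19 as an older synonym, gave 4604.8, 4152.9 and 5339.1 in control and 4235.6, 4632.9 and 4437.3 with homocysteine by its main set, a log2 difference of replicate 2 from the others with a 95% interval from -0.76 to 0.60. A second KRT24 set was higher on replicate 2 than on replicate 1 in both groups, at 386.3, 1021.2 and 771.8 in control and 357, 671.2 and 564.7 with homocysteine. KRT14, a keratin of basal epidermis, gave 113, 167.4 and 352.3 in control and 123.4, 217.7 and 175.1 with homocysteine. The main set of KRT5, its usual type II partner, was above background on 1 of 6 arrays, and KRT80 on none. KRT24, KRT14, KRT5 and KRT80 were picked after their values were seen. VIM, the intermediate filament of mesenchymal and neural crest cells, was bright throughout, at 20115.9 to 24290.1 in control and 21905.2 to 24754.5 with homocysteine. KRT8 had no probe set under its symbol.

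The likeness of patterns was measured as the root mean square difference of log2 values over the 6 arrays, each gene centred on its own mean, among 7682 other genes above background on all 6, with 242 genes that carry only a clone or locus name left out. The measure takes in how far a gene varies as well as its order of arrays. Among all these genes, EPCAM was the closest to CLDN1, at 0.14, where CLDN1 itself had an SD of 0.58 over the arrays. The next were HOMER2, a scaffold protein gene, and SLC39A8, a zinc transporter gene, at 0.14 and 0.15. For EPCAM the closest were VILL, a villin-like gene, at 0.06, SLC39A8 at 0.07 and PARD3B, a cell polarity gene, at 0.10, and CLDN1 came 7th. For KRT7 they were CFI, the gene of complement factor I, and DCN, a matrix proteoglycan gene, both at 0.28, and SOX7, a transcription factor gene, at 0.31. CFI gave 7364.6, 1348.5 and 5021.2 in control and 5620.8, 2521.7 and 4817 with homocysteine. CLDN1 came 31st for KRT7 and EPCAM 139th, but in the other direction KRT7 came 3014th for CLDN1 and 6445th for EPCAM. The SD was 1.08 for KRT7 against 0.58 for CLDN1 and 0.45 for EPCAM. For EPCAM, TP63 came ahead of KRT7, at 5758th, while for CLDN1 TP63 came behind it, at 5581st. For TP63 the closest were STOM, LRRCC1 and ATXN10, at 0.10, 0.10 and 0.11. TP63 and CLDN1 lie on the same chromosome with 1 protein-coding gene, P3H2, between them in the RefSeq annotation of assembly GRCg7b, yet CLDN1 came only 6962nd in likeness to TP63. With 6 arrays that differ by number, such a ranking is a description of these samples.

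Homocysteine against control gave no call for these genes. Of the 8 members 0 passed an adjusted p of 0.05 over all 38382 probe sets (limma, Benjamini-Hochberg), and 0 were at an unadjusted p under 0.05. Over all probe sets 0% passed and 3.97% were at an unadjusted p under 0.05. With a trended and robust spread 0 members passed as well. Of the 5 members above background on at least 3 arrays, TP63 had a positive log2 change and the other 4 a negative one; the median over all 8, the 3 below background included, was -0.09, beside 0.01 over all genes. The groups did not overlap for 0 of the 8, for 719 of 13009 named genes by main set, and for 7.14% of all probe sets.

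The mean intensity of KRT7 was 2283 ± 1483 in control against 2021 ± 1065 after homocysteine (SD, n = 3 each), and its log2 change was -0.02 (95% interval -2.09 to 2.05; limma, adjusted p = 0.9999). This fit does not use the replicate numbers, so the low replicate 2 arrays are part of the spread. CLDN1 was at 5597 ± 2525 and 4371 ± 1109 (SD, n = 3 each), with a log2 change of -0.26 (-1.45 to 0.93). EPCAM was at 6007 ± 2276 and 4856 ± 799 (SD, n = 3 each), with a log2 change of -0.24 (-1.22 to 0.75), and its other 2 sets gave -0.39 and -0.13. GATA3 was at 111.8 ± 72.7 and 91.07 ± 57.89 (SD, n = 3 each), near background in both. Each difference of means was smaller than the control SD, but for CLDN1 and EPCAM it was larger than the homocysteine SD. The intervals given for KRT7, CLDN1 and EPCAM all included 0.

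Set side by side by number, KRT7, CLDN1 and EPCAM were each lower with homocysteine on the replicate 1 and 3 arrays and higher on the replicate 2 array, where the control was low. For CLDN1 the log2 differences were -0.60, 0.25 and -0.43 for numbers 1, 2 and 3, for EPCAM -0.51, 0.25 and -0.45, and for KRT7 -0.30, 0.43 and -0.19. GATA3 had the same signs, but its 2 readings on replicate 2 and its reading on homocysteine 1 were below background, so they are not read as differences. This order of signs was seen in 13.5% of all genes. The low and high replicate numbers thus lay closer together with homocysteine than in control, from 2696.4 to 7299.2 in control and from 3211.8 to 5420.8 with homocysteine for CLDN1. With 1 array per number and group this difference could not be tested.

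TP63 was the one member above background that was higher with homocysteine for every replicate number, by 0.52, 0.59 and 0.20 on the log2 scale. Over all genes, 24.7% had 1 sign for all 3 numbers. Its mean was 215.6 ± 23.96 in control against 295.8 ± 64.03 after homocysteine (SD, n = 3 each), and its log2 change was 0.44 (95% interval -0.29 to 1.17; limma, adjusted p = 0.9999, unadjusted p = 0.193). Homocysteine 3, at 224.4, lay below control 1, at 242.1, so the groups overlapped, and the difference did not pass.

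**Figure D4:**
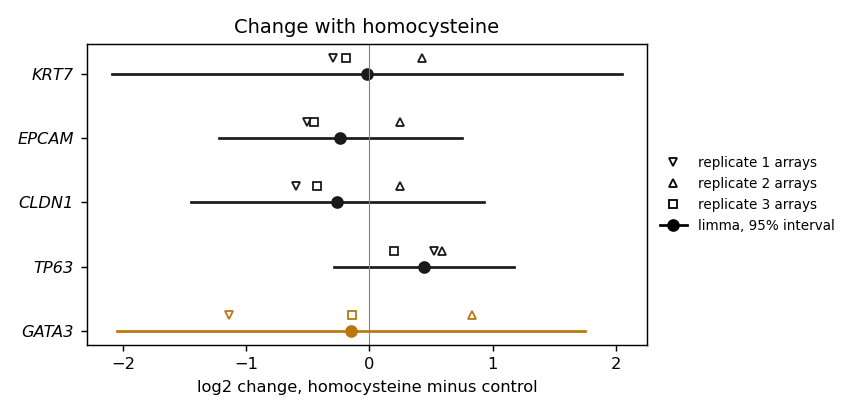
log2 change, homocysteine minus control, of the 5 members above background on at least 3 arrays, with the 95% interval of limma (filled points and lines) and the difference of the same-numbered arrays (open symbols). Every interval includes 0; KRT7, EPCAM, CLDN1 and GATA3 (near background, with 3 arrays below it) have the replicate 2 symbol to the right of 0 and the other symbols to its left, and TP63 has all 3 to the right.

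In the 3 further lists 0 of 80 measured genes passed, where 0% of all probe sets did, and 2 were at an unadjusted p under 0.05, with 35 log2 changes above 0 and 45 below, and a median of -0.04. The junction genes had 11 above and 13 below with a median of -0.10, the filament genes 11 and 17 with -0.08, and the ectoderm regulators 13 and 15 with -0.01. The genes with the smallest p were dim. CGN, which encodes the tight junction protein cingulin, had means of 31.13 in control and 75.67 with homocysteine, above background on 2 of 6 arrays, and its other set had the opposite sign, at 45.23 and 10.57. CLDN5, a claudin of endothelium, was above background on 3 arrays, and KRT222, LAMA3, TBX2 and TBX3 were on none.

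The brightest genes of these lists had log2 changes between -0.30 and 0.20. CDH1 was at 1508 ± 894.9 in control and 1235 ± 818.4 with homocysteine, DLX5 at 4340 ± 1506 and 4265 ± 1246, and VIM at 22035 ± 2107 and 23400 ± 1430 (SD, n = 3 each). The intervals of the log2 change were from -1.94 to 1.34 for CDH1, from -0.95 to 0.94 for DLX5 and from -0.53 to 0.71 for VIM (limma). SPINT1, a protease inhibitor of epithelia, LLGL2, a polarity gene, the lamins LMNB1 and LMNB2, ID1 and HES5 had log2 changes of -0.02, -0.26, 0.11, -0.20, 0.08 and 0.20, and none passed. By number, CDH1, LLGL2 and LMNB2 were lower with homocysteine each time, beside the 24.7% of all genes with 1 sign. For LLGL2 the groups did not overlap, at 1050.7 to 1247.7 in control and 885.9 to 967.5 with homocysteine. Of the 80 measured genes 6 had groups that did not overlap, beside 719 of 13009 named genes by main set and 7.14% of all probe sets. Among genes above background on all 6 arrays, as LLGL2 was, it was 269 of 7925. HES5 was level for number 1 (2731.3 in control and 2733.2 with homocysteine) and higher for numbers 2 and 3, by 0.21 and 0.38 on the log2 scale.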

How the data were processed

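Total RNA of 6 chicken samples was read on 1-colour Affymetrix arrays. The table deposited by the authors holds an intensity on a linear scale for each probe set. The submitters' processing notes name RMA without a version, but the values are linear and every array has the same mean after trimming 2% at each end (499.9), the form of MAS5 or GCOS signals. No source used here states the probe summary or the background step. The number of arrays, 3 per group, limits the precision.

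Groups and numbers came from the sample titles. The log2 of each intensity was taken with no further scaling, 96 control and 57 reporter sets were left out, and 38382 probe sets were tested with limma 3.58.1 in R 4.3.3 (lmFit, eBayes, two-sided, Benjamini-Hochberg, threshold 0.05). Symbols came from the platform annotation (1 symbol for 27168 sets, several for 177, none for 11037), and all 8 measured members kept theirs in RefSeq (GRCg7b, used for names and gene order). No sequence is printed.

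Members, lists and tests were chosen with earlier results of these data known. Named genes were all members, the 2 smallest p and 3 brightest of each further list, the 2 brightest of each cell type list, and the 3 most alike genes; others are marked. The test between replicate numbers and the count of members lowest on replicate 2 were added after the values were seen. Alternatives were the replicate block, filters, scalings, variance models, low-value treatments, other backgrounds, and leaving out arrays.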

Additional observations from a re-analysis of the deposited data

How the results depend on the processing

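The counts of probe sets, members and further epithelial genes past the threshold between homocysteine and control were 0 in the main fit and in the 18 alternatives, with 375 to 2107 probe sets at an unadjusted p under 0.05. By the rule used, same-numbered arrays were not treated as pairs, since deviations from the group means correlated by 0.172, 0.108 and 0.0486 for numbers 1, 2 and 3 over all probe sets (0.586, 0.479 and 0.198 over those above background on at least 3 arrays). As a hint from the data, the best match of 6 of 6 and of 5 of 6 arrays was the array of the same number. The replicate block left the calls at 0. It narrowed the 95% interval of the log2 change of KRT7 from -2.09 to 2.05 to -0.79 to 0.75, with -1.08 to 0.56 for CLDN1, -1.03 to 0.56 for EPCAM and -0.20 to 1.07 for TP63. Members above background on all 6 arrays stayed at 4 with other backgrounds, with any probe set and without each array. On at least 3 arrays, 5 were above it. A lower background, any probe set, fewer arrays required and leaving out arrays could not have lowered the count. The count of 4 members lowest on replicate 2, GATA3 included, did not change in any alternative run. Leaving out arrays could not have lowered that count either.

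Between replicate numbers, probe sets past the threshold went from 0 to 3518 with a trended and robust spread and to 2732 with only sets above background on all 6 arrays, and members from 0 to 3 and 2. They stayed at 0 in the other alternatives, each array left out included. The main fit draws the spread of each probe set towards a value common to all sets, dim ones included.

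The sign of the log2 change turned in 34 of 391 values of 23 named genes, none of which had passed. KRT7 became 0.0045 with quantile normalization, 0.10 with array weights and 0.12 without both replicate 1 arrays. Without the replicate 1 arrays GATA3 became 0.34 and DLX5 0.03. DLX5 became 0.05 and ID1 -0.18 with array weights, and SPINT1 0.02 with quantile normalization. For genes below background on every array the numbers are listed only to show that their signs are unsettled and are no measure of change: GATA2 became -0.15 with array weights, -0.70 without the replicate 1 arrays and -0.57 to 1.10 over leaving out each array, and DLX3 and LAMA3 became 0.21 with low values raised to background. Over leaving out each array the change ranged from -0.82 to 0.56 for KRT7, -0.90 to 0.33 for GATA3, -0.81 to 0.15 for CDH1, -0.23 to 0.13 for SPINT1, -0.24 to 0.25 for DLX5, -0.78 to 0.87 for ID1 and -0.05 to 0.44 for HES5. It kept its sign for CLDN1 (-0.72 to -0.0026), EPCAM (-0.60 to -0.01) and TP63 (0.31 to 0.62). The cause was not tested, except that low values raised to background lose their own spread.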
